A study of Mus musculus with 48 samples.

Results

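Selp, Clu, Aldh1a1, Nupr1, Vwf, Plscr2, Jam2, Sult1a1 and Alcam are 9 genes whose transcripts are known to be more abundant in blood stem cells of old mice. They were chosen by name as genes of this kind, with earlier results of these data known. They are 9 of the 39066 genes with a transcript start in RefSeq (GRCm38.p6, with mm10 coordinates) on chromosomes 1 to 19, X and Y. The question was whether open chromatin at these genes, measured by ATAC-seq in single cells, differed between daughters of young and of aged stem cells. The series holds 48 cells, which are both daughters, named A and B, of 24 divisions of long-term hematopoietic stem cells (LT-HSC). Of these divisions 14 came from young mice of 10 to 12 weeks and 10 from aged mice of 20 to 26 months. The records give the strain as B6.SJL and the methods of the study name C57BL/6, and neither names an engineered allele or a drug for these cells. LT-HSC had been sorted from bone marrow as lineage-negative, Sca-1+, c-Kit+, CD34-, Flk2- cells, and each was grown alone in medium with serum and cytokines for 40 to 44 h until its first division, so every value describes cells after culture. The leading digit of a library's name is called its library set here, since no source says what it stands for. Set 3 holds 8 young and 5 aged divisions, set 4 holds 4 young and 5 aged divisions, and set 5 holds 2 young divisions and no aged one. The mice behind the divisions are not named, so each p-value treats divisions as the replicates and cannot speak for animals.

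Blood stem cells of old mice are more numerous, give fewer lymphocytes and carry more transcripts of genes of platelets and of cell adhesion. Selp encodes P-selectin and Vwf encodes von Willebrand factor, both adhesion proteins that platelets and endothelial cells store in granules, and Jam2 and Alcam encode adhesion molecules of the immunoglobulin family at the cell surface. Aldh1a1 encodes an enzyme that oxidizes retinaldehyde, Sult1a1 encodes a phenol sulfotransferase, Clu encodes the secreted chaperone clusterin, Nupr1 encodes a small nuclear protein induced by stress, and Plscr2 belongs to the phospholipid scramblase family.

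The results turn on 5 stretches of the mouse genome, 4 of them because the same region was listed there in many divisions and the intron of Selp because its ends differed from cell to cell. They are printed from the reference genome (mm10), 5′ to 3′ on the strand of the gene, with capitals marking exact matches on either strand to short motifs of 5 families of transcription factors. The share of 27025 RefSeq promoters of 300 bases (GRCm38.p6) with at least 1 match is given with each motif, because letters this short are common. For ETS factors the motif is CCGGAA, found in 15.2% of those promoters, and for GATA factors it is GATAA, found in 25.8%. For SP factors it is GGGCGG, found in 35.9%, and for the factor NFY it is CCAAT, found in 37.9% of promoters. For RUNX factors it is TGTGGT, found in 16.9% of promoters. Selp_start is chr1:164114276-164114475 (+), a region before the start of Selp. Selp_intron is chr1:164135314-164135613 (+), the middle of an element in an intron of Selp. Vwf_inside is chr6:125573141-125573440 (+), in an intron of Vwf. Aldh1a1_start is chr19:20601769-20601967 (+), the part of a region that lies before the second start of Aldh1a1. Plscr2_start is chr9:92274511-92274682 (+), before the first start of Plscr2.
Selp_start: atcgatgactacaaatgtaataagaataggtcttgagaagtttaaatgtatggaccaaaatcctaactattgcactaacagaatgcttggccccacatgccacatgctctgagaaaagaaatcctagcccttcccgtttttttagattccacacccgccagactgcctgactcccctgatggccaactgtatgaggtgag
Selp_intron: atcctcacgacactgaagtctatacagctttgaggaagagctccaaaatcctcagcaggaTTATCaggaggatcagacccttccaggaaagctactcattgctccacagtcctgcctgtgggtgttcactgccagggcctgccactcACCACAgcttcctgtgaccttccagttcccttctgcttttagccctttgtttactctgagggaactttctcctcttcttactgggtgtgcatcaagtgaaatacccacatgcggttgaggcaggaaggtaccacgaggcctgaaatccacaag
Vwf_inside: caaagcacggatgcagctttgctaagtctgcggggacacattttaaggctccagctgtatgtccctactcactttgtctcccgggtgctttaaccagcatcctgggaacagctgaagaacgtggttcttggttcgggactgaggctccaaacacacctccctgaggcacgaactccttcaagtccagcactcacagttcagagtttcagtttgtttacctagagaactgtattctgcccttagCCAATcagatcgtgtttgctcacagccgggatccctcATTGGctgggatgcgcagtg
Aldh1a1_start: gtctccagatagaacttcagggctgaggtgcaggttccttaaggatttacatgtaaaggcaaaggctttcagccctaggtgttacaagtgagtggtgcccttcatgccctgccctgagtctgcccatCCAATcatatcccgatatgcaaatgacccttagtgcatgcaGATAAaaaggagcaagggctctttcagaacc
Plscr2_start: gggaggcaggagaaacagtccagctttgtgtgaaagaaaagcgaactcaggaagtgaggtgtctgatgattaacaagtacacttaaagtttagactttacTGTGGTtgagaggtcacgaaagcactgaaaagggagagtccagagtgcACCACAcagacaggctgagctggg
Selp_intron holds 1 GATA and 1 RUNX match, Vwf_inside holds 2 NFY matches in opposite orientations, Aldh1a1_start holds 1 GATA and 1 NFY match, and Plscr2_start holds 2 RUNX matches. Selp_start holds none of the 5 motifs. No base of the 5 stretches is masked as a repeat in the reference.

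Each cell's file lists regions with a pileup, which is the number of transposase insertions, each widened to 150 bp, that overlap at the summit, and with a q-value of the region within that cell. A region with q under 0.05 is called a peak. The files held 4497404 regions, of which 1285060 were peaks. In set 3 the young divisions had between 122607 and 320848 regions over both daughters (median 298672.5), and the aged ones between 162034 and 369949 (median 260451). Their means were 261611 and 283171 (two-sided exact permutation test, p = 0.639). The mean number of peaks per division was 76846.6 in young and 91773.2 in aged divisions (p = 0.427). In set 4, 8 of 9 divisions were shallow, with 15485 to 46893 regions and 20 to 390 peaks, and the ninth, the young division 4y1, had 361751 regions and 106581 peaks. A peak needed a pileup of only 2 in 9 of the 10 aged cells and 13 of the 16 young cells of set 3, and of 4 or more in every cell of set 4 outside 4y1. At the 9 loci a peak in set 4 is therefore close to a statement about 4y1 alone.

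The libraries were not separate in their positions. Of all listed regions, 93.31% had exactly the same first and last base as a region in a cell of another division, 87.76% were found with the same ends in both ages, and 81.11% were found in more than 1 library set. Between 2 cells, the median share of the shorter list found with identical ends in the other was 50.62% for the 13 pairs of daughters of set 3, 38.93% for 152 pairs of cells of that set from different divisions of 1 age and 34.78% for 160 pairs of different age. The highest value between cells of different age was 64.84%. Recurrence fell with pileup, from 96.94% of peaks with a pileup of 2 to 63.16% of peaks with a pileup of 10 or more. At the 9 loci, 504 of 555 peaks (90.81%) recurred in this way, and the 555 peaks used 160 different pairs of ends. Divisions that share positions are not independent observations, so the p-values below may be off in either direction, and the main counts are given with and without the recurring regions. The cause of the sharing was not tested.

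**Figure D1:**
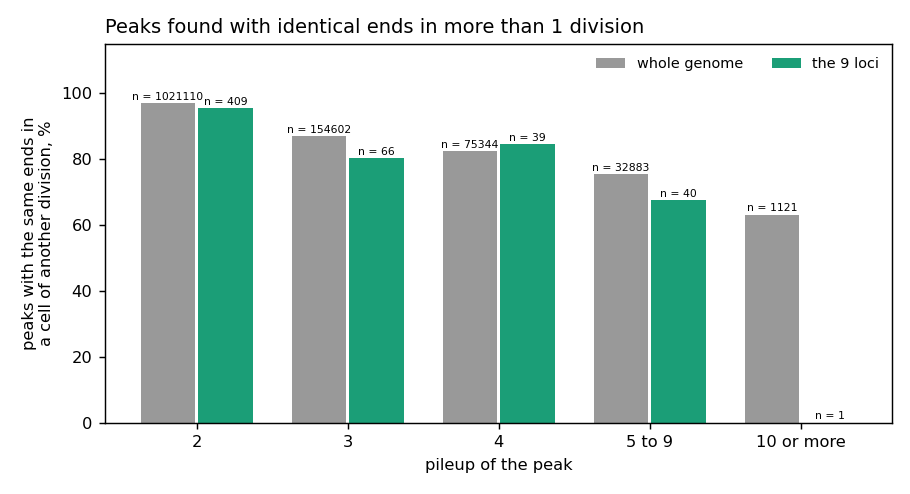
Share of peaks with the same first and last base in a cell of another division (y axis, percent) by pileup of the peak (x axis), for all peaks of the 48 cells (grey) and for peaks in the 9 loci (green), with the number of peaks above each bar. At a pileup of 2 the shares are 96.94% in the genome and 95.6% in the 9 loci.

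The question of the first comparison was whether more aged than young divisions had a peak at the start of these genes, within 1 kb on either side of any RefSeq start. In set 3 the starts of Clu, Nupr1, Vwf and Jam2 had no peak in any division of either age. Plscr2 had one in 5 of 5 aged and 4 of 8 young divisions, Aldh1a1 in 5 of 5 and 5 of 8, Selp in 4 of 5 and 4 of 8, Sult1a1 in 2 of 5 and 2 of 8, and Alcam in 0 of 5 and 1 of 8. The share of divisions was thus higher in the aged group for 4 of the 9 genes, beside 27.8% of all 39066 genes, and lower for 1, beside 13.3%. No member had an adjusted p under 0.05, and 0% of all genes did (two-sided Fisher's exact test, Benjamini-Hochberg over 39066 genes). The lowest p among the members was 0.105 for Plscr2, so 0 of 9 had an unadjusted p under 0.05, beside 1.51% of all genes. The lowest p this design allows is 0.000777, so a gene could pass the adjustment only if very many genes reached that p together. In set 4 no aged division had a peak at any of the 9 starts, and 4y1 had one at Selp, Aldh1a1 and Plscr2. No member, and 0.0256% of all genes, had a higher share of aged divisions there, and 3 members had a lower one, beside 30.8% of all genes. With both sets as strata, the exact conditional test gave p = 1 for Selp, 0.627 for Aldh1a1 and 0.608 for Plscr2.

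These peaks at the starts were nearly all recurring ones. Of 50 peaks at the 9 starts over all 48 cells, 48 had the same ends in another division, beside 94.31% of all peaks in the genome. Without recurring peaks, only 4y1 kept a peak at Aldh1a1 and only 3y3 at Alcam, both young. The count of members with a higher share of aged divisions in set 3 then went from 4 to 0, beside 15.9% of all genes. When a recurring region was kept only in the division where its pileup was highest, an alternative chosen after seeing the data, the count was also 0, beside 18.6% of all genes, and Plscr2 kept a peak in 3y8 alone. At q under 0.01 the count was 0, with a difference of 0 for each member. With a peak asked of both daughters the count was 1, for Aldh1a1 (p = 0.0319, adjusted p = 1), and with windows of 500 bp it was 1 as well, again for Aldh1a1. It was 5 with regions of a pileup of at least 2, 5 with windows of 2 kb and 3 with every listed region. For the settings other than the main one and those for recurring regions no share of all genes is given. These counts are therefore not a result about the members.

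**Figure D2:**
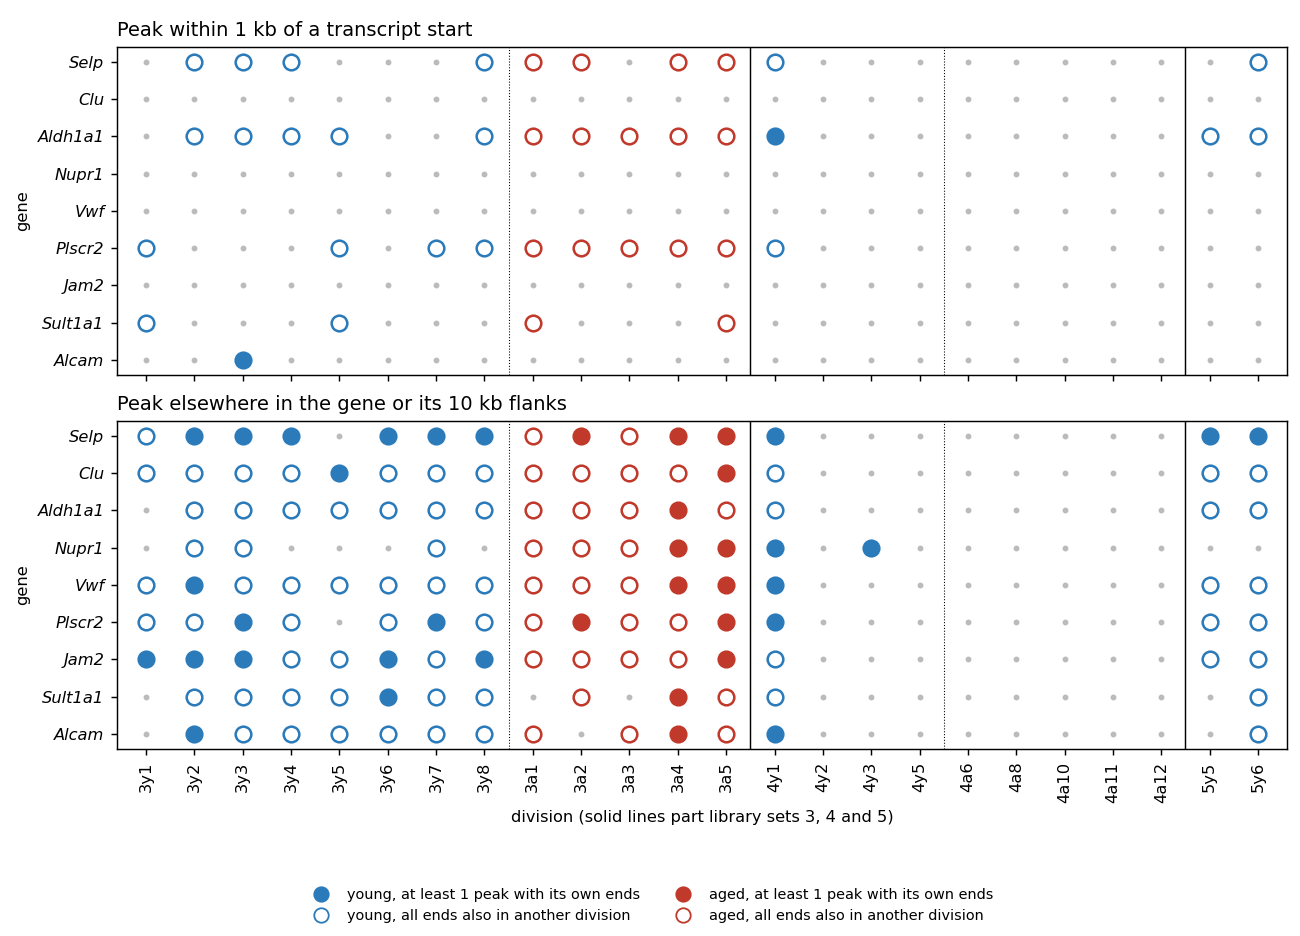
Divisions (x axis, ordered by library set and age) with a peak at each gene (y axis), at a start (top) and elsewhere in the gene and its 10 kb flanks (bottom). Filled circles mark divisions with at least 1 peak whose ends were in no other division, open circles those in which all ends recurred, and grey points those with no peak; 2 circles in the top panel are filled.

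At Selp, the peak before the start was Selp_start, 200 bases whose middle lies 889 bp before the first transcribed base. It was a peak in 13 cells of 10 divisions, with the same first and last base in all 13 and a pileup of 2 in each. The cells were 3a1B, 3a2B, 3a4A and 3a5B of the aged divisions of set 3, 3y2A, 3y2B, 3y3B, 3y4A, 3y4B and 3y8B of the young ones, and 4y1A, 4y1B and 5y6A. The same first and last bases were thus found in both ages.

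Aldh1a1 has 2 annotated starts, and the region that includes Aldh1a1_start overlaps the second. It was a peak in 19 cells of 13 divisions, with 3 pairs of ends of which 1 was found in 13 cells. All 5 aged divisions of set 3 had it, 4 of them in both daughters, and 9 of 10 aged cells did. Of the young divisions of set 3, 5 of 8 had it, and 1 had it in both daughters, with 6 of 16 young cells. The remaining 3 young divisions had a listed region there that was not a peak. Its highest pileup was 1 in 3y1 and 2 in 3y6 and 3y7. Each aged division of set 3 also had a highest pileup of 2, so none exceeded 3y6 or 3y7 in pileup. The cells counted here are not replicates. The first start of Aldh1a1 had no peak.

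Plscr2 has 3 annotated starts. Plscr2_start and the bases before it held a peak in 4 of 5 aged and 2 of 8 young divisions of set 3, with a pileup of 3 in each peak and 4 pairs of ends, all of them recurring. The middle of this merged peak lies 1012 bp before the first start, so only its edge reaches the window of 1 kb. Regions without regard to q were listed there in 5 of 5 aged and 8 of 8 young divisions. A further region in the gene, 725 bp from another start, had 1 pair of ends in 3a3A, 3a5B, 3y1A and 3y5A. At Sult1a1 the start had 1 pair of ends as well, in 3a1B, 3a5B, 3y1A and 3y5A. Alcam had a peak over its start in both daughters of the young division 3y3, with a pileup of 2 and a different pair of ends in each daughter.

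The starts of Vwf, Clu and Nupr1 had no listed region of any q in any of the 48 cells, and 3 of the 9 members thus lacked one beside 40.82% of all genes and 28.31% of 21774 protein-coding genes. Jam2 had listed regions at a start in 9 cells of 8 divisions and none was a peak. The files list regions above a lowest signal only, so a start with none is unlisted, and not shown to be closed.

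The second comparison asked the same of peaks elsewhere in each gene and its flanks of 10 kb. In set 3 nearly every division had one: 5 of 5 aged and 8 of 8 young divisions at Clu, Vwf and Jam2, and 5 of 5 and 7 of 8 at Selp, Aldh1a1 and Plscr2. Nupr1 had 5 of 5 aged and 3 of 8 young divisions, Sult1a1 had 3 of 5 and 7 of 8, and Alcam had 4 of 5 and 7 of 8. The share was higher in the aged group for 4 of 9 members, beside 41% of all genes, and lower for 2, beside 23.9%. Without the young division 3y5 it was higher for 2. No member passed an adjusted p of 0.05 and 0% of all genes did, and the lowest unadjusted p was 0.0754 for Nupr1 (two-sided Fisher's exact test), so that 0 members were under 0.05 beside 1.29% of all genes. The difference of 62.5 points at Nupr1 depended on the setting and was 0 at q under 0.01, at a pileup of at least 3, without flanks and with flanks of 50 kb, and 60 points with a peak asked of both daughters (p = 0.035). With both sets as strata, the exact conditional test gave p = 0.653 for Nupr1. At Aldh1a1 the difference went from 12.5 points to 60 at q under 0.01 and at a pileup of at least 3 (p = 0.035 in each, adjusted p = 1). In set 4 no aged division had such a peak at any member and 4y1 had one at all 9. Thus 0 of 9 members and 0.0461% of all genes had a higher share of aged divisions, and all 9 had a lower one, beside 66.5% of all genes. The set 4 division 4y3 had one too, at Nupr1. Without recurring peaks the share in set 3 was higher in the aged group for 7 of 9 members, beside 28.8% of all genes, but on few divisions: 1 or 2 aged divisions for each of the 7, and 3a4 and 3a5, the aged divisions with the most listed regions, supplied most of them. No gene passed an adjusted p of 0.05 in that setting either.

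The third comparison needed no threshold on q and scaled for depth: all listed regions of a locus, start included, per 100000 listed regions of the division. At Nupr1 the aged divisions of set 3 had 1.15 (3a1), 1.15 (3a2), 4.32 (3a3), 1.08 (3a4) and 1.65 (3a5), and the young ones between 0 and 1.62 with a median of 0.49. The means were 1.87 ± 1.39 (SD, n = 5) and 0.545 ± 0.522 (SD, n = 8), a difference of 1.33 (two-sided exact permutation test, p = 0.00932, adjusted p = 0.407 over all genes). The groups overlap through the young division 3y2 alone, and 3a3 lies far above the others: without it the difference was 0.7142 (p = 0.0384, adjusted p = 0.712). At Alcam the aged divisions had 4.22, 1.54, 2.47, 4.87 and 4.13, and the young ones between 4.28 and 7.5 with a median of 5.1. The means were 3.44 ± 1.39 (SD, n = 5) and 5.48 ± 1.06 (SD, n = 8), with the aged mean lower (two-sided exact permutation test, p = 0.00622, adjusted p = 0.359). Only 3a4 of the aged divisions reached the range of the young ones, but with regions of a pileup of at least 2 or at least 3 the sign at Alcam was opposite. The other 7 members had p of 0.214 or more.

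**Figure D3:**
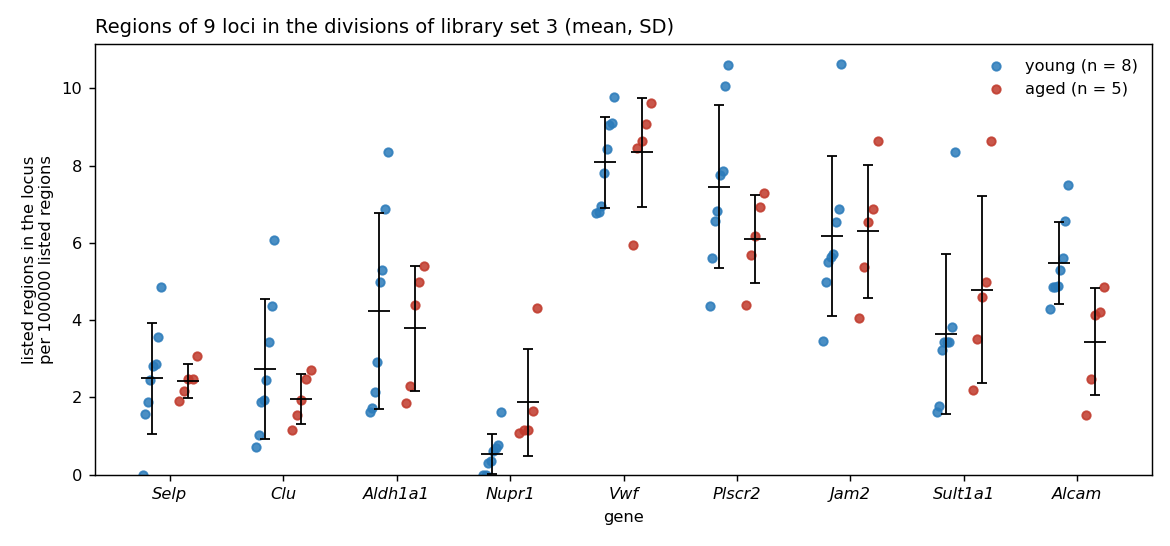
Listed regions per 100000 listed regions of a division (y axis) in each of the 9 loci (x axis) for the 8 young (blue) and 5 aged (red) divisions of library set 3, with mean and SD. At Nupr1 the aged points lie between 1.08 and 4.32 and the young ones between 0 and 1.62, and at Alcam the aged points lie between 1.54 and 4.87 and the young ones between 4.28 and 7.5.

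Over the list, 4 of 9 members had the higher mean in the aged group of set 3, beside 49.8% of all genes, and the median difference was -0.0743, beside 0 over all genes. Unadjusted p-values were under 0.05 for 2 members, beside 7.9% of all genes, and no member and 0% of all genes passed after adjustment. Without recurring regions 3 of 9 members had the higher mean in the aged group of set 3, a count for which no share of all genes is given. The difference was then 7.045 at Nupr1 (two-sided exact permutation test, p = 0.035, adjusted p = 1) and -1.228 at Alcam. Removing regions from the count alone cannot raise the difference at Nupr1 this far. These 2 values are therefore on another scale, and their sizes cannot be compared with those for all regions. In set 4, 4 of 9 members had the higher mean in the aged group, beside 39.3% of all genes. Without recurring regions 3 did, again with no share of all genes given. Nupr1 had no listed region in any aged division of set 4 and a mean of 1.09 in the young ones, from 8 regions in 4y1 and 1 in 4y3. The aged divisions of set 4 had only 15532 to 43793 regions, so their count of 0 and the opposite sign of the difference carry little. Sult1a1 had the lowest p of set 4 and was the only member under 0.05, beside 5.7% of all genes, with means of 3.58 ± 4.39 (SD, n = 5) in aged and 20.9 ± 21.1 (SD, n = 4) in young divisions (two-sided exact permutation test, p = 0.0317, adjusted p = 0.835). The young mean rests on few regions, since 4y2 had 51.7 from 8 regions and 4y1, 4y3 and 4y5 had 3.87, 14.9 and 13.2. The lowest p that set 4 allows is 0.00794. Per kb of locus, the level in set 3 over both ages was highest at Plscr2, with 0.164 ± 0.0444 (SD, n = 13), then Sult1a1 (0.109 ± 0.0581), Jam2 (0.086 ± 0.0258), Clu (0.0737 ± 0.0447), Vwf (0.0532 ± 0.00795), Nupr1 (0.0475 ± 0.0503), Selp (0.045 ± 0.0206), Aldh1a1 (0.0238 ± 0.0126) and Alcam (0.021 ± 0.00686). The ranges of mean ± SD overlapped between neighbours in this order, which pools the ages, and the place of Nupr1 in it depends on age. The median of this level was 0.0532 over the members, 0.0481 over all genes and 0.0532 over protein-coding genes.

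Overlapping peaks of all cells were merged, which gave 75 merged peaks in the 9 loci: 48 in introns, 4 in exons and 23 in flanks. Of these, 13 came from a single division, and 36 were found in 2 or more divisions with 1 pair of ends throughout. Among merged peaks found in at least 10 divisions, 9 of 15 at the members had 1 pair of ends, beside 48.2% of 35453 in the genome. With at least 2 divisions the share was 58.1% at the members and 67.6% in the genome, and with at least 5 it was 58.3% and 63.2%. With at least 15 divisions it was 0 of 3 and 22.3%. Whether the members lay above or below the genome thus depended on this limit. Plscr2, with a locus of 42151 bp, had the most merged peaks, 13, followed by Vwf with 12, Aldh1a1 with 11, Sult1a1 with 10 and Alcam with 9.

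**Figure D4:**
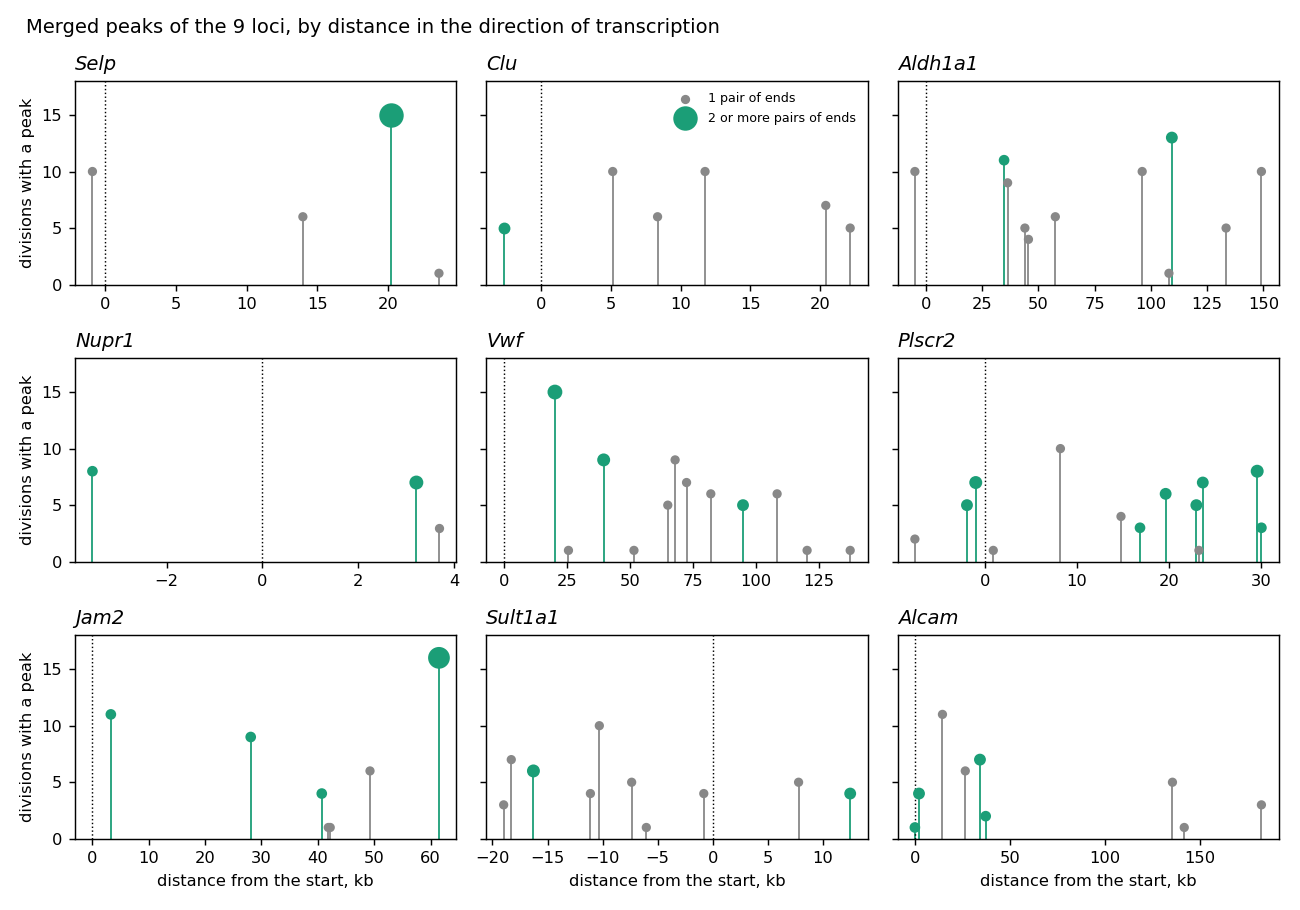
Merged peaks of each locus by distance from the start of the gene in the direction of transcription (x axis, kb) and by the number of divisions with a peak there (y axis). Grey marks merged peaks with 1 pair of ends and green those with more, with larger points for more pairs; the element of Selp has 21 pairs in 15 divisions.

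The intron of Selp stood out by its ends. The element around Selp_intron, 20.2 kb into the gene, was chosen after its values were seen. It held 26 peaks in 24 cells of 15 divisions with 21 different pairs of ends, and 16 of the 26 peaks had ends found in no other division. Of 3393 merged peaks in the genome that were found in at least 15 divisions, 2.33% had 21 or more pairs of ends. The highest pileup per aged division of set 3 was 6 in 3a1, 9 in 3a2, 4 in 3a3, 10 in 3a4 and 7 in 3a5, and in the young divisions it lay between 0 and 7 with a median of 6. A peak was present in 5 of 5 aged and 7 of 8 young divisions, and in both daughters of 4 of 5 and 3 of 8. Both ages thus had this element open. The young division without it was 3y5, with 131878 regions, and 3y1, with 122607, had a peak there with a pileup of 5. The part of depth was not tested. In set 4 the element was listed in 3 of 5 aged and 2 of 4 young divisions, below the threshold except in 4y1, and it was a peak in both young divisions of set 5. Without recurring peaks, the locus of Selp outside the start kept a peak in 3 of 5 aged and 6 of 8 young divisions of set 3, the most of any member. Another merged peak of Selp, in an intron 13.97 kb into the gene, was found in 4 of 5 aged and 0 of 8 young divisions of set 3 but in both young divisions of set 5, with 1 pair of ends and a pileup of 2 in all 7 cells.

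**Figure D5:**
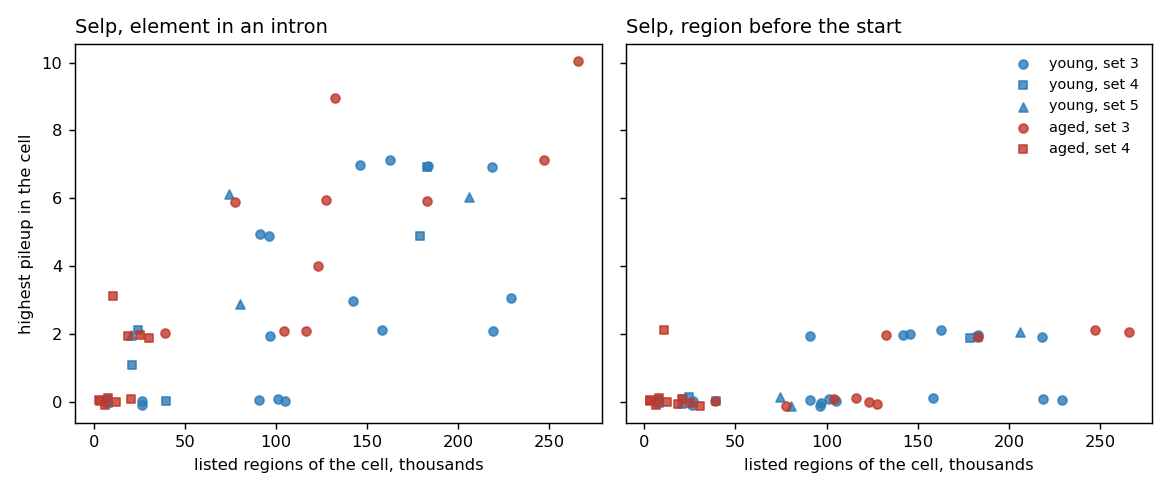
Highest pileup in each of the 48 cells (y axis, jittered slightly) against the listed regions of that cell (x axis), at the element in the intron of Selp (left) and at the region before its start (right), by age and library set. In the intron the pileup reaches 10 in an aged and 7 in young cells, and before the start it is never above 2.

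Vwf, the other granule protein of platelets, had its most frequent peak inside the gene too. The merged peak around Vwf_inside, 20.3 kb from the start of the reference transcript, was found in 24 cells of 15 divisions, with 5 of 5 aged and 8 of 8 young divisions of set 3. Pileups per division lay between 3 and 5 in the aged and between 2 and 5 in the young divisions of that set. It had 6 pairs of ends, of which 1 was found in 11 cells, and 23 of 24 peaks recurred. At Jam2, which encodes an adhesion molecule of the cell surface, the most frequent merged peak, found in 27 cells of 16 divisions with 16 pairs of ends and pileups of 3 to 7, lay in the flank after the gene, within 1 kb of the starts of Atp5j and Gabpa, so it cannot be credited to Jam2. Inside Jam2, the merged peak 3.3 kb from the start was found in 4 of 5 aged and 4 of 8 young divisions of set 3, with 2 pairs of ends, and the one 28.1 kb from the start in 5 of 5 and 2 of 8, also with 2. Each of these was also found in both young divisions of set 5. At Alcam the most frequent one lay in an intron 14.6 kb from the start, in 3 of 5 aged and 6 of 8 young divisions of set 3, with 1 pair of ends in 14 cells. Another, 2.3 kb from the start, was found in 3 of 5 aged and 0 of 8 young divisions of set 3, with 3 pairs of ends. It was also found in the young division 4y1 of set 4.

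At Nupr1 no merged peak lay within 3 kb of the gene's start. Not all merged peaks of this locus are described here, and the counts for Nupr1 above do not rest on the described ones alone. At 3.2 kb after the start and within 1 kb of the start of the predicted gene Gm39087, a merged peak was found in 4 of 5 aged and 1 of 8 young divisions of set 3, with 5 pairs of ends. It was also found in 2 young divisions of set 4, where 4y3 had the highest pileup of 4. Another, 3.7 kb after the start and also within 1 kb of the start of Gm39087, was found in 3 of 5 aged and 0 of 8 young divisions with 1 pair of ends. Both of these lie in the flank after the gene, so neither can be credited to Nupr1. Of their bases, 54.28% at 3.2 kb and 39.62% at 3.7 kb are masked as repeats. Without recurring peaks Nupr1 had 2 of 5 aged and 0 of 8 young divisions in set 3 (two-sided Fisher's exact test, p = 0.128). In set 4 the young divisions 4y1 and 4y3 had one as well.

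Clu had 6 merged peaks, each in 5 to 10 divisions and none at a start. The one 11.8 kb into the gene was found in 5 of 5 aged and 2 of 8 young divisions of set 3, and the one 5.1 kb into it in 3 of 5 and 4 of 8, each with 1 pair of ends in 13 cells. Each was also found in the young division 4y1 and in both young divisions of set 5. At the one 5.1 kb into the gene the pileups lay between 2 and 6. The one 8.3 kb into the gene went the other way, with 0 of 5 aged and 5 of 8 young divisions of set 3 and 1 pair of ends in 6 cells. Plscr2 had its most frequent merged peak in an intron, in 4 of 5 aged and 4 of 8 young divisions of set 3, with 1 pair of ends in 16 cells. That of Sult1a1, also in an intron, was found in 2 of 5 aged and 6 of 8 young divisions of set 3. At Aldh1a1 one 36.3 kb from the start was found in 2 of 5 and 6 of 8 as well. The merged peaks described are some of 75, chosen by no fixed rule. No share of the genome's merged peaks with such differences is given, so they are not a result about the members.

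Over the 22 divisions of sets 3 and 4, 3 members had a peak at the start in at least 5. For Selp, 51 genes had the identical 9 divisions (Jaccard index 1), and the first in the order of the alphabet were 2610005L07Rik, 2810021J22Rik and 3830417A13Rik. For Aldh1a1, 12 genes had the identical 11 divisions, with 4930598A11Rik, Ggh and Gm40345 first. For Plscr2, Psmb5 and Tcf3 had the identical 10 divisions, and of the genes that followed with a Jaccard index of 0.909, Bpnt2 is the first in the order of the alphabet. In all, 10 genes had an index of at least 0.909. These likenesses are descriptions over divisions that share positions and depth.

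Of 20 other genes known to rise in old stem cells, 13 had a peak at a start in some division, and Mt2, which encodes a metallothionein, had it in the most, 15 of 24. Without recurring peaks 6 of the 20 had one. For such counts without recurring peaks, in this list and the lists below, no share of all genes is given. In set 3 the share of divisions with a peak at the start was higher in the aged group for 10 of these 20 and lower for 3, beside 27.8% and 13.3% of all genes, with a median difference of 2.5 percentage points, beside 0 for the 9 members and 0 over all genes. None passed an adjusted p of 0.05, and 1 had an unadjusted p under 0.05, beside 1.51% of all genes (two-sided Fisher's exact test). Elsewhere in the locus the share was higher for 11 and lower for 1, beside 41% and 23.9% of all genes. Of 10 genes of lymphoid priming, 6 had a peak at a start, led by Satb1 with 13 divisions, and 4 without recurring peaks, and in set 3 the share was higher in the aged group for 2 and lower for 3. Of 14 platelet and megakaryocyte genes, 8 had one, led by Pf4 with 15 divisions, and 5 without recurring peaks, with the share higher for 4 and lower for 4.

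The label of stem cells was checked against marker genes by the number of divisions with a peak at a start. Of 20 stem cell genes, 14 had one in some division, led by Hlf and Runx1 with 14 of 24 each, and 12 still had one without recurring peaks. Those of Hlf all recurred, and Runx1 kept 6 divisions. Of 15 genes used in every cell, 13 had one, led by Pgk1 with 24, and 10 still had one without recurring peaks. Of 8 B cell markers 4 had one (led by Ebf1 with 10), of 9 T and NK cell markers 3 (Tcf7 with 15), of 8 erythroid markers 3 (Hbb-bs with 7), of 11 granulocyte and monocyte markers 2 (Csf3r with 11) and of 8 stroma and endothelium markers 2 (Kdr with 7). Without recurring peaks these counts were 1, 2, 2, 2 and 1. Genes of non-blood tissues had 5 of 10, led by Pax6 with 12, and 1 of 10 without recurring peaks. The 9 members had 5 of 9 with all peaks, beside 45.37% of all genes and 59.53% of protein-coding genes. Without recurring peaks they had 2 of 9, with no share of all genes to set beside it. Some genes of other tissues also had a peak at a start, so such a peak alone does not show a gene in use. Whether the lists differ was not tested.

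RefSeq promoter sequences (GRCm38.p6, 250 bases before to 50 after a start) were at hand for Selp, Aldh1a1, Nupr1, Sult1a1 and Alcam, which are 5 of 9 members, too few to compare the list's base composition with other genes. The promoter of Alcam, the one with a peak over its start in 3y3, had 69.7% G and C and a CpG ratio (observed over expected) of 0.688. Selp had 51.7% and 0.202, and the second start of Aldh1a1 had 47% and 0.0604. The medians over all 27025 promoters were 52.7% and 0.389.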

How the data were processed

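The authors aligned paired reads to mm10 (cutadapt 1.9.1, Bowtie2 and MACS2 in the submitters' processing notes) and called regions in each cell by itself; the region threshold is not stated. The deposited pileup is a signal (coverage at the summit) in whole insertions, not normalized. The deposited −log10 q values come from MACS2 within each cell, and −log10 q above 1.30103 made a peak. From these, regions were matched to RefSeq loci, counted per division (a peak in either daughter) and compared with Python 3.11.15, numpy, pandas and scipy; 528 lines that gave further summits of a region were merged into it. Counting and tests were first tested on simulated data. Coordinates count from 1. All 9 members are named. Of other lists the counts and the gene or genes with most divisions are given, and for likeness the 3 genes with the highest Jaccard index (ties by alphabet). Members and lists were chosen with earlier results of these data known. Reads, mapping quality and barcodes were not analysed here. A few withheld items are not reported here.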

Additional observations from a re-analysis of the deposited data

Results flagged for a closer look

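In the 36 groups of divisions tested for a division far from the others, of which chance alone marks about 1 in 20, 3 values stood apart in listed regions per 100000. The aged division 3a3 had 4.32 at Nupr1, the young division 3y2 had 1.617 at Nupr1, and the young division 3y5 had 8.341 at Sult1a1, all in set 3.

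At Nupr1 the comparison of aged with young divisions for peaks away from the start differed between sets 3 and 4 (two-sided exact test of equal odds ratios, p = 0.02597, not adjusted): 5 of 5 aged and 3 of 8 young divisions in set 3, and 0 of 5 and 2 of 4 in set 4. The aged divisions of set 4 had only 20 to 390 peaks each in the whole genome and needed a pileup of 4 or more, and the part of depth was not tested. The p-value therefore says nothing of age.

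In the young divisions of set 5, which enter no comparison for lack of aged ones, 2 members had a peak at a start: Aldh1a1 in both divisions and Selp in 5y6.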

How the results depend on the processing

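Counts are members of 9 with a higher share or mean in the aged group. A count with no share of all genes beside it, here or above, cannot be read as particular to the members. For starts in set 3 the count was 4 and went to 0 at q under 0.01, 0 without recurring regions, 0 with them kept where pileup was highest, 1 at a pileup of at least 3, 1 for both daughters and 1 with windows of 500 bp. It was 5 at a pileup of at least 2, 5 with windows of 2 kb and 3 with every listed region. In set 4 it was 0 and went to 1 with every listed region and 1 at a pileup of at least 2. For peaks elsewhere in set 3 the count was 4 and went to 7 without recurring regions, 7 with them kept where pileup was highest (beside 33.8% of all genes) 6 at q under 0.01, 6 for both daughters and 2 with flanks of 50 kb, and lay between 2 and 5 without single divisions. In set 4 it was 0 and went to 4 with every listed region and 3 at a pileup of at least 2. For regions per 100000 in set 4 it was 4 and went to 1 with flanks of 50 kb and 2 at a pileup of at least 3, and lay between 2 and 4 without single divisions. The number of members past an adjusted p of 0.05 was 0 under every setting run, a threshold that the small numbers of divisions make hard to reach.

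In set 3, some differences (aged minus young, in percentage points) changed sign. At starts, Alcam went from -12.5 to 25 with every listed region and 27.5 with windows of 2 kb, Plscr2 from 50 to -12.5 with recurring regions kept where pileup was highest, and Selp from 30 to -25 for both daughters. Elsewhere, Sult1a1 went from -27.5 to 12.5 at a pileup of at least 2, to 7.5 without recurring regions and to 7.5 with them kept where pileup was highest. Alcam went from -7.5 to 12.5 at a pileup of at least 2, 20 at a pileup of at least 3, 7.5 and 7.5 in the 2 settings for recurring regions, 10 for both daughters and between -20 and 12.5 without single divisions, with the sign changed only without the aged 3a2. Plscr2 went from 12.5 to -2.5 at a pileup of at least 3 and for both daughters, and Selp from 12.5 to -15 and -27.5 in the 2 settings for recurring regions. In regions per 100000, Alcam went from -2.04 to 0.1227 and 0.7192 at a pileup of at least 2 and 3. The cause was not tested. The setting that keeps recurring regions where pileup is highest was chosen after seeing the data.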
